A study of Danio rerio with 9 samples.

Results

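The transcriptome of *chordin*-overexpressing zebrafish embryos was compared with that of uninjected embryos, gene by gene, in 6 of the 9 libraries of the series. The 3 *chordin*-overexpressing samples were wild type embryos of the TE strain that received 100 pg of *chordin* mRNA, and the 3 uninjected samples were siblings without an injection. Every sample pooled 10 embryos collected at 6.75 h post-fertilization (hpf), the shield stage of early gastrulation. The other 3 libraries, from *bmp*-overexpressing embryos injected with 10 pg of *bmp2b* mRNA, are used only where stated. No embryos injected with a control mRNA were among the samples, so an effect of the injection and an effect of Chordin cannot be told apart. Whole embryos were pooled, so fewer cells of a type and less RNA per cell cannot be told apart either. Nothing in the labels says whether the 3 pools of a group came from separate clutches, and p-values therefore measure only the spread between these pools.

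Chordin is a secreted protein that binds BMP ligands and keeps them from their receptors. In the zebrafish gastrula it is made on the dorsal side, in the organizer (the shield), and BMP signaling is left highest on the ventral side. Ligand-bound receptors phosphorylate Smad proteins, which enter the nucleus and switch on ventral genes, among them genes whose products feed back on the pathway. Cells with high signaling form epidermis and ventral mesoderm such as blood, whereas cells with little signaling form neural plate and axial mesoderm such as notochord. Embryos with too little BMP signaling are called dorsalized.

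The libraries held 13137468, 8861308 and 17311551 counts in *chordin*-overexpressing embryos, against 15218498, 22372856 and 13621606 counts in uninjected embryos. Levels are given as CPM, counts per 1000000 after scaling of the libraries to each other, in the order of replicates 1 to 3. A gene entered the test with enough counts in at least 3 libraries, which left 16590 genes. Fold changes were fitted with limma on the log2 scale, *chordin*-overexpressing over uninjected, and a gene counts as called where its adjusted p (Benjamini-Hochberg) was under 0.05. Exact permutation of 3 libraries against 3 allows no two-sided p under 0.1 for any gene by itself, and p-values are therefore those of the fit over all genes. Genome positions are those of the GRCz10 build, and loci are whole genes, exons and introns together.

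*chd*, the *chordin* gene (chromosome 15, 46557787 to 46594810), had 1757, 1667 and 2259 CPM in *chordin*-overexpressing embryos, against 194, 216 and 217 CPM in uninjected embryos. All 3 injected pools were thus far above the uninjected ones, as their labels say. The fitted difference was 9.17-fold, or 3.2 ± 0.11 SE on the log2 scale (adjusted p = 3.36e-18, limma). Reads from the injected mRNA and from the embryo's own *chd* are counted together. The value is therefore no measure of how the endogenous gene responded, and *chd* is left out wherever a count is said to be without it.

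In all, 98 genes (0.591% of those tested) were higher in *chordin*-overexpressing embryos and 50 genes (0.301%) were lower. The falls were the larger changes. The median fall was 2.14-fold and 12 of the 50 genes fell at least 4-fold, whereas the median rise was 1.82-fold and 5 of the 98 genes, *chd* among them, rose at least 4-fold. The libraries of the groups did not overlap for 96 of the genes called higher and for all 50 called lower. Over all genes tested they did not overlap for 7.23% in the higher direction and 7.26% in the lower direction. Calls and overlap rest on the same library values, so the lack of overlap among called genes is no separate support for the calls. Replicate 1 of the uninjected embryos stood apart from the other uninjected libraries, and without it 242 genes were higher and 146 lower. When *chordin*-overexpressing replicate 2 or 3 was left out, 27 or 29 genes were lower. When each library was left out in turn, 46 of the 98 and 22 of the 50 genes were called every time.

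**Figure D1:**
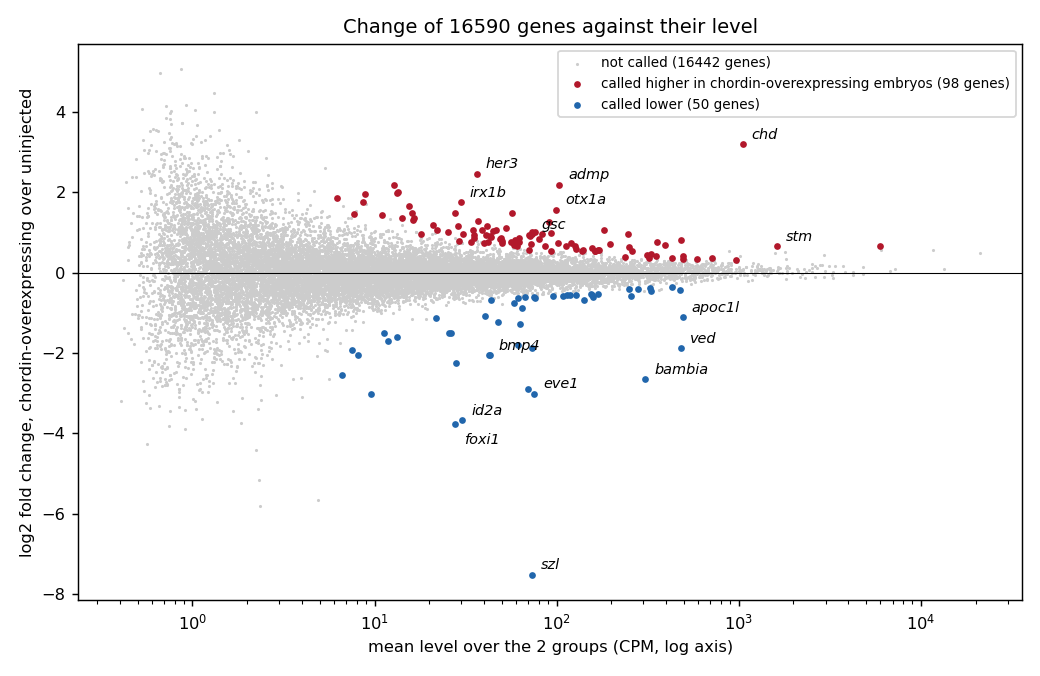
Each point is 1 of the 16590 genes tested, placed by its mean level over both groups (CPM, log axis) and by its log2 fold change, *chordin*-overexpressing over uninjected. The 98 genes called higher have positive and the 50 called lower negative log2 fold changes, and some of these points lie within the grey cloud. The cloud widens toward low levels, and *szl* lies lowest at -7.52.

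The spread set how low in abundance a change could be called. Standard errors on the log2 scale had a median of 0.11 for genes with a mean of at least 100 CPM and of 0.71 for genes between 1 and 5 CPM. None of the 5080 genes between 1 and 5 CPM and none of the 1228 genes under 1 CPM was called (limma, adjusted over all genes), whereas 2.75% of the 1962 genes of at least 100 CPM were. At an unadjusted p under 0.05 there were 216 and 25 genes in these lowest ranges, and limma-trend called 9 and 0 of them, limma with sample quality weights 3 and 0. Of all 16590 genes tested, 873 were higher and 692 lower at an unadjusted p under 0.05. That is a larger share than in either of the lowest ranges. For a gene of such low abundance the absence of a call does not show that its level was unchanged.

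The gene lists that follow were chosen with earlier results of these data known. Their counts stand beside 0.591% higher and 0.301% lower among all genes tested. Among the BMP ligands and their processing enzymes, 7 of 12 genes were tested, of which 2 were lower and 1 higher. *bmp4*, which encodes a ventral ligand that BMP signaling itself maintains, had 16.0, 16.4 and 16.4 CPM in *chordin*-overexpressing embryos, against 44.0, 76.8 and 88.6 CPM in uninjected embryos. It fell 4.13-fold (log2 fold change -2.05 ± 0.26 SE, adjusted p = 1.18e-05, limma), and the uninjected libraries spread far more widely than the *chordin*-overexpressing ones. *bmp7a*, which encodes the partner of Bmp2b in the ligand dimer, had 18.2, 39.8 and 32.1 CPM in *chordin*-overexpressing embryos and 49.0, 84.7 and 61.1 CPM in uninjected embryos. Its log2 fold change of -1.21 (SE 0.23, adjusted p = 0.00326, limma) came from groups that lay close together without overlapping. *admp* (chromosome 2, 53756678 to 53772703), which encodes a BMP-like ligand of the organizer, went the other way, with 176, 181 and 151 CPM in *chordin*-overexpressing embryos, against 45.9, 32.1 and 34.1 CPM in uninjected embryos. It was 2.19 ± 0.15 SE higher on the log2 scale (adjusted p = 5.75e-11, limma). The median log2 fold change of the 7 genes was -0.64, against 0.0038 over all genes tested. The remaining 4 tested genes, *bmp2b*, *gdf6a* and the protease genes *bmp1a* and *tll1*, had log2 fold changes between -2.89 and -0.24 and were not called.

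The extracellular regulators held the largest fall of all genes tested. *szl* (*sizzled*, chromosome 25, 348505 to 352985) encodes a secreted protein that inhibits the proteases which cleave Chordin. Its level was 1.35, 0.687 and 0.518 CPM in *chordin*-overexpressing embryos, against 141, 141 and 155 CPM in uninjected embryos. The fitted fall was 183-fold (log2 fold change -7.52 ± 0.81 SE, adjusted p = 5.07e-07, limma). The wide error goes with the 17, 6 and 9 counts that the *chordin*-overexpressing libraries held. *sfrp1a*, which encodes a secreted Frizzled-related protein, had 72.3, 64.1 and 54.8 CPM in *chordin*-overexpressing embryos and 34.1, 36.1 and 33.3 CPM in uninjected embryos (log2 fold change 0.85 ± 0.16 SE, adjusted p = 0.00385, limma). The list has 16 names, of which 9 genes were tested and 3 called, *chd*, *sfrp1a* and *szl*. Its median log2 fold change was 0.16, but lay between -0.09 and 0.47 over the alternative fits and so changed sign. *nog1*, encoding the BMP inhibitor Noggin 1, had 33.7, 14.9 and 21.0 CPM in *chordin*-overexpressing embryos and 17.8, 10.1 and 13.9 CPM in uninjected embryos. These ranges overlapped (adjusted p = 0.262, limma, and 0.0412 to 0.848 over the alternative fits, the lowest without replicate 1 of the uninjected embryos).

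Of 11 genes for BMP receptors and signal-carrying Smads 9 were tested and 1 was called, with a median log2 fold change of -0.44. *smad5*, which encodes the main early carrier of the BMP signal in zebrafish, had 121, 125 and 167 CPM in *chordin*-overexpressing embryos, against 184, 221 and 191 CPM in uninjected embryos. The fall was modest (log2 fold change -0.53 ± 0.12 SE, adjusted p = 0.0264, limma). It was not called when *chordin*-overexpressing replicate 1 or 2 was left out (adjusted p = 0.238 and 0.151, limma) or without replicate 2 or 3 of the uninjected embryos (adjusted p = 0.0909 and 0.0518, limma). *smad1*, which encodes another carrier of the BMP signal, had the largest log2 fold change of the list, with 1, 0 and 13 counts in *chordin*-overexpressing embryos, against 96, 245 and 163 counts in uninjected embryos. The groups did not overlap, as 7.26% of all genes tested did not in this direction. The difference was not called (log2 fold change -5.67 ± 1.59 SE, adjusted p = 0.1, limma). It was called in 6 of 14 alternative fits, with adjusted p-values (limma) between 0.000128 and 0.552. The receptor genes tested, *bmpr1aa*, *bmpr1ab*, *bmpr1ba*, *bmpr1bb* and *acvr1l*, had log2 fold changes between -1.03 and 0.15 and none was called. Without replicate 1 of the uninjected embryos, 4 genes of this list were lower, as were 146 of all 17565 genes tested.

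The intracellular feedback list also holds the *id* genes. Of its 12 genes 11 were tested, of which 4 were lower and none higher, with a median log2 fold change of -1.59. *bambia* (chromosome 12, 23302907 to 23309133), which encodes a pseudoreceptor without kinase activity that dampens BMP signaling, had 87.6, 79.6 and 84.4 CPM in *chordin*-overexpressing embryos and 458, 561 and 574 CPM in uninjected embryos. It fell 6.29-fold with a small error (log2 fold change -2.65 ± 0.12 SE, adjusted p = 5.05e-15, limma). *smad7*, an inhibitory Smad gene, had 17.6, 14.4 and 16.2 CPM in *chordin*-overexpressing embryos and 63.3, 63.4 and 78.8 CPM in uninjected embryos. *smad6a*, the other inhibitory Smad gene called, had 6.02, 5.61 and 7.95 CPM in *chordin*-overexpressing embryos, against 20.9, 22.3 and 17.1 CPM in uninjected embryos.

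The *id* genes of this list, whose products block helix-loop-helix transcription factors, did not behave alike. *id2a* (chromosome 17, 34857993 to 34860219) had 4.99, 6.76 and 3.0 CPM in *chordin*-overexpressing embryos, against 37.8, 62.4 and 66.8 CPM in uninjected embryos. This was a 12.7-fold fall (log2 fold change -3.67 ± 0.41 SE, adjusted p = 7.46e-07, limma). *id1* had 360.2, 370.3 and 453 CPM in *chordin*-overexpressing embryos and 477, 548 and 451 CPM in uninjected embryos, overlapping ranges with a log2 fold change of -0.32 (SE 0.09, adjusted p = 0.145, limma). It was called lower without replicate 3 of the *chordin*-overexpressing embryos (adjusted p = 0.0394, limma) and without replicate 1 of the uninjected embryos (adjusted p = 0.0138, limma). *id3* had 72.5, 101 and 117 CPM in *chordin*-overexpressing embryos and 84.5, 87.1 and 94.6 CPM in uninjected embryos (adjusted p = 0.852, limma). *id4* was at the detection limit and is described with the other genes there.

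Of 14 ventral mesoderm and tail factors 11 were tested, of which 6 were lower and none higher, with a median log2 fold change of -1.29. Summed over the list, the level was 666.5, 638.6 and 676.3 CPM in *chordin*-overexpressing embryos, against 1584, 1623 and 1625 CPM in uninjected embryos. Much of the difference between these sums came from a single gene, *ved*, whose levels are given below. *eve1* (chromosome 3, 23511336 to 23513295), an even-skipped homeobox gene of the ventral margin, had 15.8, 15.2 and 18.5 CPM in *chordin*-overexpressing embryos and 123, 156 and 126 CPM in uninjected embryos. It fell 8.08-fold (log2 fold change -3.01 ± 0.21 SE, adjusted p = 5.75e-11, limma). *gata2a*, which encodes a GATA factor of blood and ventral ectoderm, had 25.6, 32.7 and 36.1 CPM in *chordin*-overexpressing embryos and 118, 114 and 114 CPM in uninjected embryos. *cdx4*, a caudal homeobox gene of the posterior body, had 42.8, 36.6 and 32.3 CPM in *chordin*-overexpressing embryos and 82.5, 92.8 and 92.3 CPM in uninjected embryos. The log2 fold changes of the last 2 genes were -1.87 for *gata2a* (SE 0.16, adjusted p = 8.68e-09, limma) and -1.29 for *cdx4* (SE 0.16, adjusted p = 5.86e-06, limma).

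The homeobox repressors *vox*, *vent* and *ved*, which keep organizer genes off on the ventral side, all fell but by unequal amounts. *ved* (chromosome 10, 45150450 to 45155584) had 206, 180.5 and 230.1 CPM in *chordin*-overexpressing embryos, against 721, 775 and 795 CPM in uninjected embryos, a 3.68-fold fall (adjusted p = 2.69e-14, limma). This was also the largest fall in CPM of any gene called. *vent* had 12.7, 7.79 and 19.2 CPM in *chordin*-overexpressing embryos and 35.9, 40.7 and 37.8 CPM in uninjected embryos (log2 fold change -1.5 ± 0.25 SE, adjusted p = 0.000844, limma). *vox* had 207, 219.5 and 191 CPM in *chordin*-overexpressing embryos and 315, 309 and 293 CPM in uninjected embryos (log2 fold change -0.59 ± 0.10 SE, adjusted p = 0.000563, limma). The annotated loci of *vent* and *vox* overlap and the reads carry no strand, so their values may share reads. Among the 5 genes of the list that were tested and not called, *gata3* had 147, 138 and 140.4 CPM in *chordin*-overexpressing embryos and 178, 123 and 154 CPM in uninjected embryos, overlapping ranges.

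Of 18 non-neural ectoderm factors 16 were tested, of which 6 were lower and none higher, and 15 of the 16 log2 fold changes were negative, with a median of -1.26. *foxi1* (chromosome 12, 43916243 to 43917947), a forkhead gene of the epidermis and the ear placode, had 4.36, 6.19 and 2.59 CPM in *chordin*-overexpressing embryos, against 49.8, 55.3 and 47.9 CPM in uninjected embryos. This 13.6-fold fall (log2 fold change -3.77 ± 0.36 SE, adjusted p = 6.06e-08, limma) was second to that of *szl* among the genes called. *tfap2c*, an AP-2 gene, had 13.5, 22.7 and 15.5 CPM in *chordin*-overexpressing embryos and 103, 117 and 146 CPM in uninjected embryos, a 7.40-fold fall (adjusted p = 5.44e-10, limma). Its relative *tfap2a* had 93.3, 88.5 and 81.9 CPM in *chordin*-overexpressing embryos and 120.2, 83.4 and 96.4 CPM in uninjected embryos and was not called (adjusted p = 0.777, limma). *klf2b*, a Krüppel-like factor gene, had 26.4, 29.2 and 26.6 CPM in *chordin*-overexpressing embryos and 85.6, 94.1 and 108 CPM in uninjected embryos (log2 fold change -1.81 ± 0.17 SE, adjusted p = 4.88e-08, limma). *msx1b*, a homeobox gene of the neural plate border, had 8.31, 5.16 and 3.80 CPM in *chordin*-overexpressing embryos and 15.9, 15.1 and 22.7 CPM in uninjected embryos (log2 fold change -1.70 ± 0.36 SE, adjusted p = 0.00999, limma). It was not called without replicate 3 of the *chordin*-overexpressing embryos (adjusted p = 0.199, limma). The other called members, *gata2a* and *bmp4*, also belong to the lists above. *grhl3* and *klf17*, which the enveloping layer also expresses, had log2 fold changes of -0.03 and 0.10 and were not called.

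**Figure D2:**
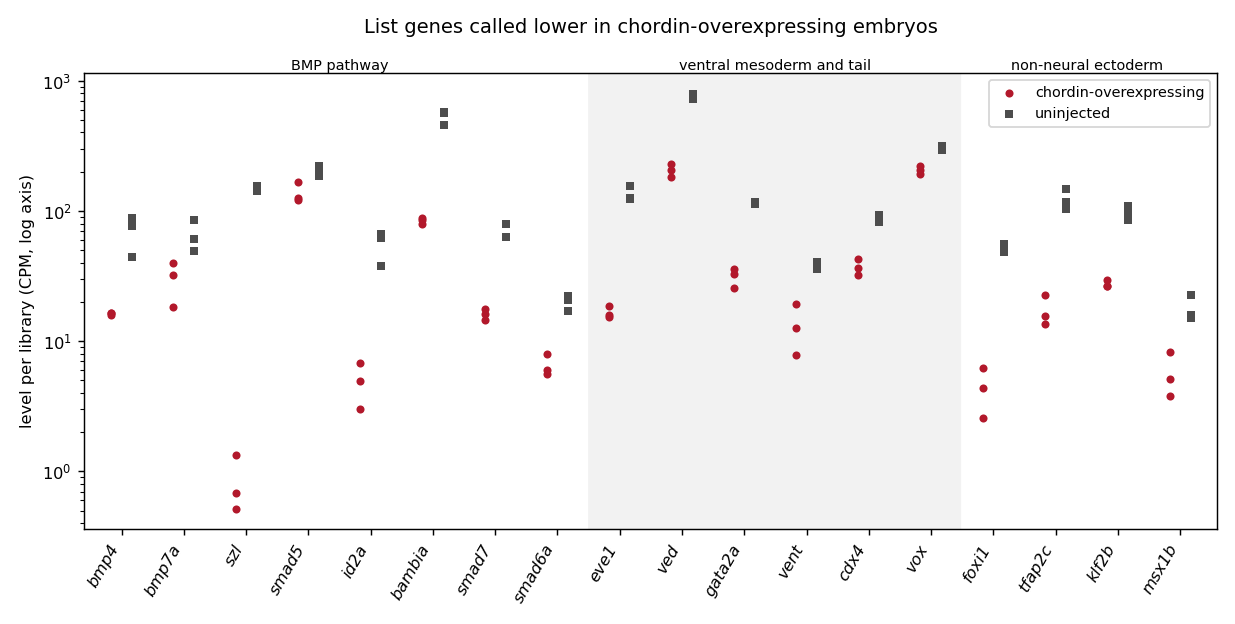
Level per library (CPM, log axis) of the 18 genes called lower in the BMP pathway, ventral mesoderm and non-neural ectoderm lists, with 3 *chordin*-overexpressing libraries as red circles to the left of 3 uninjected libraries as grey squares. Every red circle lies below every grey square of the same gene, with the widest gap at *szl* and the narrowest at *smad5*, *vox* and *bmp7a*.

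All 25 genes found of the list for the organizer and the axial mesendoderm were tested. Of these, 13 were higher, 12 without *chd*, and none lower, and the median log2 fold change was 0.96. The forkhead genes *foxa2* and *foxa3*, expressed in axial mesoderm, floor plate and endoderm, both rose. *foxa2* had 18.3, 22.9 and 22.4 CPM in *chordin*-overexpressing embryos and 3.49, 5.90 and 6.86 CPM in uninjected embryos (log2 fold change 2.0 ± 0.32 SE, adjusted p = 0.000349, limma). *foxa3* had 315, 318 and 349 CPM in *chordin*-overexpressing embryos, against 149, 178 and 180.3 CPM in uninjected embryos (log2 fold change 0.96 ± 0.10 SE, adjusted p = 3.84e-07, limma). *gsc* (chromosome 17, 19323179 to 19325685), the homeobox gene goosecoid of the prechordal plate, had 95.6, 106 and 89.6 CPM in *chordin*-overexpressing embryos and 60.2, 43.0 and 48.6 CPM in uninjected embryos, a 1.94-fold rise. *noto*, needed for the notochord, had 95, 115 and 95.8 CPM in *chordin*-overexpressing embryos, against 58.8, 44.3 and 50.0 CPM in uninjected embryos (log2 fold change 1.00 ± 0.14 SE, adjusted p = 9.36e-05, limma).

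The 7 called organizer genes not yet given had log2 fold changes between 0.60 and 1.48. *frzb*, which encodes a secreted Wnt antagonist, had 28.0, 21.4 and 21.5 CPM in *chordin*-overexpressing embryos and 5.46, 11.1 and 8.66 CPM in uninjected embryos (log2 fold change 1.48, adjusted p = 0.00385, limma). *hhex* (1.37), a homeobox gene of anterior endoderm, and *lhx1a* (0.99), a LIM homeobox gene, rose as well. *foxd3*, a forkhead gene of the organizer and later the neural crest, rose 2.18-fold. So did *fgf8a* (0.77), a fibroblast growth factor gene, *cyp26a1* (0.73), which encodes an enzyme that degrades retinoic acid, and the forkhead gene *foxd5* (0.60). Of these, *fgf8a* was not called without replicate 2 of the *chordin*-overexpressing embryos or replicate 2 of the uninjected embryos (adjusted p = 0.066 and 0.179, limma), and *foxd5* stood at the threshold without replicate 3 of the *chordin*-overexpressing embryos (adjusted p = 0.05, limma). *ta* (*no tail*), the T-box gene of the margin and the notochord, did not share the rise, with 608, 666 and 632 CPM in *chordin*-overexpressing embryos and 719.6, 691 and 700.3 CPM in uninjected embryos (log2 fold change -0.15 ± 0.07 SE, adjusted p = 0.509, limma). Nor did *dharma*, *lft1* and *fsta* of this list, with log2 fold changes of -0.06, 0.08 and 0.14 and overlapping groups (adjusted p = 0.989, 0.935 and 0.985, limma). *shha*, which encodes the signal Sonic hedgehog of the notochord and floor plate, had 44, 35 and 55 counts in *chordin*-overexpressing embryos and 11, 15 and 11 counts in uninjected embryos. The groups did not overlap, as 7.23% of all genes tested did not in this direction. The difference was not called (log2 fold change 2.25 ± 0.80 SE, adjusted p = 0.28, limma). *dkk1b*, encoding the Wnt antagonist Dickkopf 1, had 40.1, 44.1 and 51.8 CPM in *chordin*-overexpressing embryos and 31.7, 23.5 and 31.8 CPM in uninjected embryos (adjusted p = 0.0646, limma, and 0.0124 to 0.400 over the alternative fits, the lowest without replicate 1 of the uninjected embryos).

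In the neural plate list, 29 of 39 genes were tested, of which 10 were higher and 3 lower, with a median log2 fold change of 0.73. Among called genes the largest rise after *chd* was that of *her3* (chromosome 8, 46651107 to 46652327), which encodes a Hairy-type repressor that marks zones without neuron formation in the neural plate. It had 76.6, 53.6 and 54.2 CPM in *chordin*-overexpressing embryos, against 10.4, 10.3 and 13.1 CPM in uninjected embryos. The rise was 5.50-fold (log2 fold change 2.46 ± 0.23 SE, adjusted p = 4.07e-08, limma). *her11*, from the same repressor family, had 22.3, 20.5 and 20.4 CPM in *chordin*-overexpressing embryos and 4.87, 4.57 and 4.40 CPM in uninjected embryos (log2 fold change 2.19 ± 0.31 SE, adjusted p = 8.60e-05, limma). The Iroquois homeobox gene *irx1b* had 49.8, 39.8 and 48.2 CPM in *chordin*-overexpressing embryos and 13.1, 14.8 and 12.8 CPM in uninjected embryos, a 3.38-fold rise. *irx7*, of the same family, had 109.9, 108 and 109 CPM in *chordin*-overexpressing embryos and 59.2, 49.8 and 61.4 CPM in uninjected embryos (log2 fold change 0.97 ± 0.13 SE, adjusted p = 5.12e-05, limma).

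Further members of the neural plate list were higher as well. *otx1b*, a homeobox gene of forebrain and midbrain, had 56.5, 46.9 and 54.8 CPM in *chordin*-overexpressing embryos and 23.6, 25.6 and 15.4 CPM in uninjected embryos. *foxb1a*, a forkhead gene of the neural plate, had 73.2, 89.4 and 88.1 CPM in *chordin*-overexpressing embryos and 29.9, 26.7 and 33.6 CPM in uninjected embryos (log2 fold change 1.5 ± 0.16 SE, adjusted p = 5.25e-07, limma). *sox11a*, which encodes an SRY-related factor of early neural cells, had 468, 449 and 426 CPM in *chordin*-overexpressing embryos and 298, 247 and 254 CPM in uninjected embryos (log2 fold change 0.76 ± 0.09 SE, adjusted p = 4.33e-06, limma). *cyp26a1* and *foxd5*, given above, belong to this list as well.

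The 3 neural genes that were lower were *sox2* and *sox3*, of the SoxB1 family of neural progenitor factors, and *dld*, which encodes the Notch ligand DeltaD. *sox3* had 406, 392 and 414 CPM in *chordin*-overexpressing embryos, against 477, 584 and 570.3 CPM in uninjected embryos (log2 fold change -0.43 ± 0.09 SE, adjusted p = 0.00802, limma). *sox2* had 55.5, 61.4 and 61.8 CPM in *chordin*-overexpressing embryos, against 86.7, 91.9 and 92.7 CPM in uninjected embryos (log2 fold change -0.60 ± 0.14 SE, adjusted p = 0.0201, limma). *dld* had 108, 101 and 99.1 CPM in *chordin*-overexpressing embryos and 138, 143 and 174 CPM in uninjected embryos (log2 fold change -0.54 ± 0.12 SE, adjusted p = 0.0201, limma). All 3 falls were small, and each lost its call without at least 1 of the libraries. The adjusted p (limma) of *sox3* was 0.0564 without replicate 2 of the *chordin*-overexpressing embryos. For *sox2* it lay between 0.0699 and 0.151 without any 1 *chordin*-overexpressing library and 0.0823 when uninjected replicate 3 was left out. For *dld* it reached 0.0797 and 0.137 when *chordin*-overexpressing replicate 2 or 3 was left out, and 0.175 without replicate 3 of the uninjected embryos. *sox19a*, another SoxB1 gene, had 556, 453 and 479 CPM in *chordin*-overexpressing embryos and 529.8, 531 and 559.6 CPM in uninjected embryos, overlapping ranges (adjusted p = 0.698, limma).

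Genes of the anterior neural plate that were not called differed in how their groups lay. *six3b*, a homeobox gene of the forebrain and eye field, had 6.41, 6.53 and 11.2 CPM in *chordin*-overexpressing embryos and 0.329, 1.29 and 6.21 CPM in uninjected embryos (log2 fold change 2.61 ± 0.66 SE, adjusted p = 0.0511, limma). It was called in 5 of 14 refits, among them the fit without replicate 1 of the uninjected embryos (adjusted p = 0.0344, limma). *otx2*, a head homeobox gene, had 13.1, 11.8 and 9.62 CPM in *chordin*-overexpressing embryos and 1.58, 5.26 and 6.14 CPM in uninjected embryos (adjusted p = 0.0808, limma). *six7*, *hesx1* and *her5* had log2 fold changes of 1.38, 1.45 and 0.97 and did not overlap between groups either, as 7.23% of all genes tested did not in this direction. *six3a* and *rx3*, homeobox genes of the same region, had log2 fold changes of 2.28 and 0.66 with overlapping groups (adjusted p = 0.653 and 0.901, limma). The posterior genes *hoxb1a* and *hoxb1b* had too few counts to be tested. *gbx1*, also of this list, was tested, with 13.5, 16.4 and 12.1 CPM in *chordin*-overexpressing embryos and 12.8, 12.8 and 9.75 CPM in uninjected embryos. These ranges overlapped (log2 fold change 0.18, adjusted p = 0.886, limma).

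**Figure D3:**
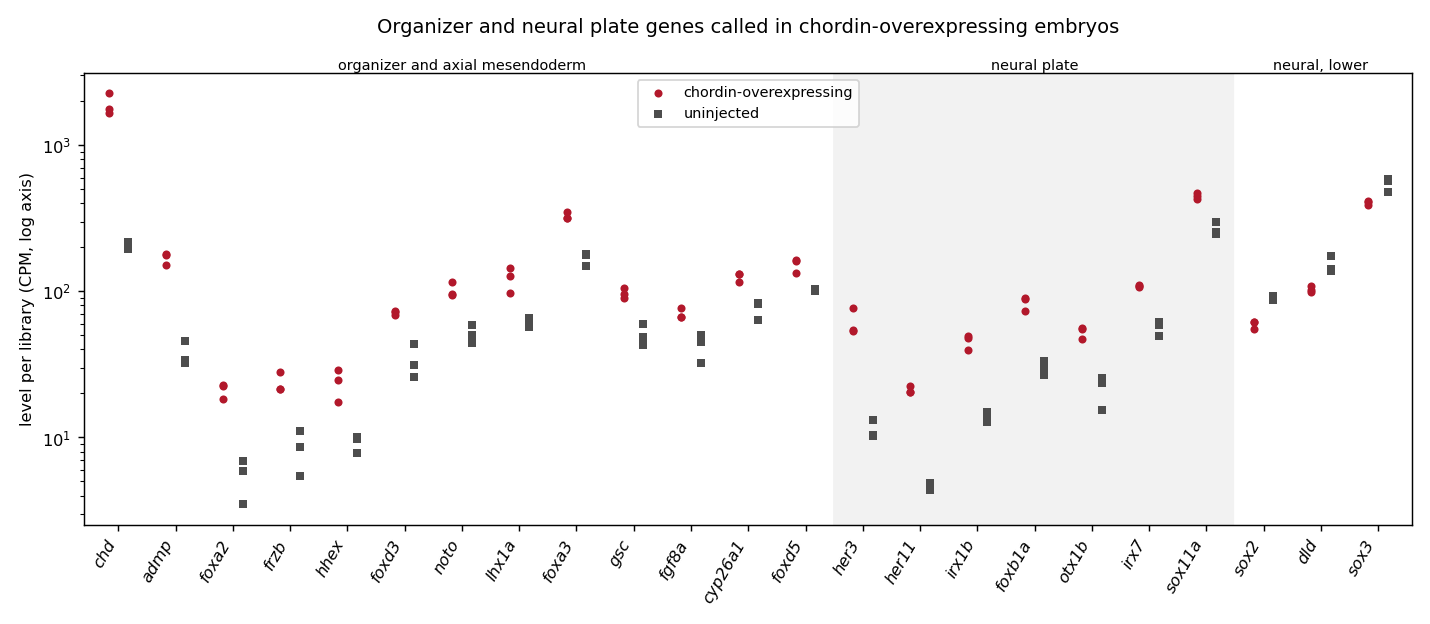
Level per library (CPM, log axis) of the 13 organizer genes and 10 of the neural plate genes called, with 3 *chordin*-overexpressing libraries as red circles to the left of 3 uninjected libraries as grey squares. The red circles lie above the grey squares for the 13 organizer and the next 7 neural genes, and below them for *sox2*, *dld* and *sox3*.

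Of 17 genes of paraxial and margin mesoderm 16 were tested, of which 2 were higher and 1 lower, with a median log2 fold change of 0.46. *tbx6l*, a T-box gene of the ventral and lateral margin, had 25.3, 24.1 and 26.9 CPM in *chordin*-overexpressing embryos, against 59.8, 48.7 and 57.2 CPM in uninjected embryos (log2 fold change -1.08 ± 0.18 SE, adjusted p = 0.000827, limma). *aplnrb*, which encodes an Apelin receptor of mesendoderm cells, had 183, 183 and 195 CPM in *chordin*-overexpressing embryos and 102, 128 and 143 CPM in uninjected embryos (log2 fold change 0.60 ± 0.12 SE, adjusted p = 0.00513, limma). *wnt11*, a gene for a Wnt ligand of gastrulation movements, had 329.6, 366 and 381 CPM in *chordin*-overexpressing embryos and 267, 254 and 278 CPM in uninjected embryos. Its rise (log2 fold change 0.44, adjusted p = 0.00972, limma) was not called when *chordin*-overexpressing replicate 2 or 3 was left out (adjusted p = 0.0615 and 0.103, limma). *tbx16*, a T-box gene expressed around the whole margin, had 479.6, 536 and 531 CPM in *chordin*-overexpressing embryos and 546, 599 and 536 CPM in uninjected embryos (adjusted p = 0.655, limma). *myf5*, a muscle factor gene, had 53, 34 and 72 counts in *chordin*-overexpressing embryos and 0, 15 and 7 counts in uninjected embryos, and was not called (adjusted p = 0.233, limma).

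Among Wnt, FGF and Nodal signals and their feedback genes, 27 of 28 were tested, of which 6 were higher and none lower (median log2 fold change 0.31). The Nodal pathway gave 3 of the 6. Its other genes in the list, *lft1*, *gdf3* and *ndr1*, had log2 fold changes of 0.08, -0.20 and 0.61 with overlapping groups. None of these was called (adjusted p = 0.935, 0.551 and 0.468, limma). *tdgf1* (*one-eyed pinhead*), which encodes the Nodal co-receptor, had 629, 589 and 628 CPM in *chordin*-overexpressing embryos, against 396, 336 and 326 CPM in uninjected embryos (log2 fold change 0.82 ± 0.08 SE, adjusted p = 2.44e-07, limma). *lft2*, which encodes the feedback inhibitor Lefty 2, had 47.2, 56.3 and 58.2 CPM in *chordin*-overexpressing embryos and 27.0, 30.1 and 25.9 CPM in uninjected embryos. *ndr2* (*cyclops*), a Nodal ligand gene, had 46.3, 62.1 and 62.7 CPM in *chordin*-overexpressing embryos and 24.7, 35.8 and 29.5 CPM in uninjected embryos (adjusted p = 0.00708, limma, and 0.0719 without replicate 3 of the *chordin*-overexpressing embryos). *sp5l*, encoding a factor downstream of Wnt8, had 337, 276 and 299 CPM in *chordin*-overexpressing embryos and 168, 209 and 206 CPM in uninjected embryos (log2 fold change 0.65, adjusted p = 0.000525, limma). *fgf8a* and *wnt11* were given above. The FGF feedback gene *dusp6* had 239, 244 and 226 CPM in *chordin*-overexpressing embryos and 229, 267 and 246 CPM in uninjected embryos, overlapping ranges. The Wnt feedback gene *axin2* had 34.2, 39.5 and 33.1 CPM in *chordin*-overexpressing embryos and 50.8, 54.2 and 46.5 CPM in uninjected embryos and was not called (adjusted p = 0.169, limma).

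Of 8 endoderm genes, with a median log2 fold change of 0.38, 3 were higher, *foxa2*, *foxa3* and *cxcr4a*, the last a chemokine receptor gene with 409, 388 and 413 CPM in *chordin*-overexpressing embryos and 316, 304 and 291 CPM in uninjected embryos (log2 fold change 0.41, adjusted p = 0.00943, limma). *cxcr4a* was not called without replicate 3 of either group (adjusted p = 0.066 without that of the *chordin*-overexpressing and 0.0691 without that of the uninjected embryos, limma). *sox32* and *sox17*, which specify endoderm, had log2 fold changes of 0.34 and 2.16 and were not called.

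**Figure D4:**
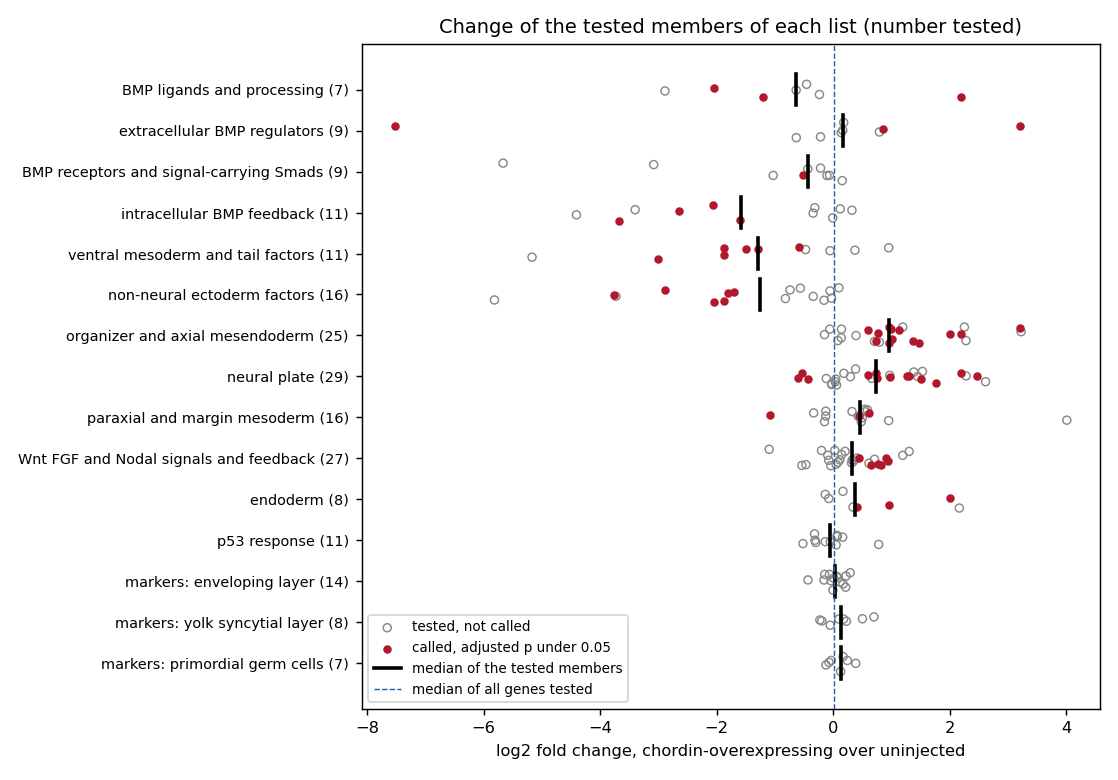
Log2 fold change, *chordin*-overexpressing over uninjected, of each tested member of the 15 lists (rows), with called genes filled red, genes not called as open circles, the list median as a black bar and the median of all 16590 genes as a dashed line. The medians lie farthest left for intracellular BMP feedback (-1.59) and farthest right for the organizer list (0.96), and no gene of the lowest 4 lists is filled.

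Cell types other than the germ layers and a stress response were checked with 4 lists, and none of their tested genes was called (limma). At an unadjusted p under 0.05 there were 3 higher and no lower cell type markers and 1 higher and 1 lower p53 gene, limma-trend called 1 yolk syncytial layer marker, and sample quality weights 1 p53 gene. At the same unadjusted threshold, 873 of all 16590 genes tested were higher and 692 lower. The higher gene of the p53 list was *isg15*, with 41.7, 57.9 and 41.0 CPM in *chordin*-overexpressing embryos and 33.0, 31.5 and 15.4 CPM in uninjected embryos. Its adjusted p was 0.103 (limma), and it was called in 4 of 14 alternative fits. The lists held 14 markers of the enveloping layer (the outer epithelium), 8 of the yolk syncytial layer, 7 of primordial germ cells and 11 genes of the p53 response, with median log2 fold changes of 0.03, 0.14, 0.13 and -0.05. Each of these 4 medians changed sign under at least 1 alternative fit. The summed level of the enveloping layer markers lay between 10480 and 11970 CPM in *chordin*-overexpressing embryos and between 8895 and 13220 CPM in uninjected embryos, where replicate 1 was the highest. Without that library, 4 of these markers were higher in *chordin*-overexpressing embryos, *krt4*, *krt8*, *krt17* and *cldne*. In that fit 242 of all 17565 genes tested were higher. With another library left out, *krt92* was called lower (adjusted p = 0.0181, limma) and *anxa1a* higher (adjusted p = 0.00683, limma), each in 1 fit. For the yolk syncytial layer the sums lay between 387.9 and 515.7 CPM in *chordin*-overexpressing embryos and between 392.6 and 419.1 CPM in uninjected embryos, and the defining genes *mxtx1* and *hnf4a* were present in every library. For germ cells they lay between 347.9 and 378 CPM in *chordin*-overexpressing embryos and between 314.9 and 395.3 CPM in uninjected embryos. Mitochondrial genes held 8.57, 5.77 and 4.54% of all counts in *chordin*-overexpressing embryos and 6.31, 3.33 and 4.09% in uninjected embryos. *CYTB*, the mitochondrial cytochrome b gene, was called higher with overlapping groups, at 9778, 6678 and 5229.9 CPM in *chordin*-overexpressing embryos and 6691, 3414 and 3852 CPM in uninjected embryos (adjusted p = 0.0346, limma). It was not called without replicate 1 of the *chordin*-overexpressing embryos (adjusted p = 0.187, limma) or replicate 3 of the uninjected embryos (adjusted p = 0.163, limma). The part of the mitochondrial share in this result was not tested.

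Many of the called genes stood in none of the lists, 28 of the 50 lower and 69 of the 98 higher genes. Among the 10 largest falls these were *map1aa*, *insm1b* and *znfl2b*. *map1aa*, which encodes a microtubule-associated protein, had 0.792, 8.48 and 1.56 CPM in *chordin*-overexpressing embryos and 19.9, 12.5 and 14.1 CPM in uninjected embryos (log2 fold change -3.02 ± 0.57 SE, adjusted p = 0.00318, limma, and 0.05 without replicate 3 of the *chordin*-overexpressing embryos). *insm1b*, a zinc finger gene of neuroendocrine cells, had 4.75, 0.458 and 1.79 CPM in *chordin*-overexpressing embryos and 10.9, 12.6 and 9.24 CPM in uninjected embryos. Its call (adjusted p = 0.0424, limma) was lost without any 1 of the *chordin*-overexpressing libraries (adjusted p between 0.0694 and 0.279, limma). *znfl2b* had 7.60, 9.62 and 11.3 CPM in *chordin*-overexpressing embryos and 35.7, 47.2 and 57.5 CPM in uninjected embryos (log2 fold change -2.25, adjusted p = 5.89e-06, limma). In CPM the third largest fall was that of *apoc1l*, an apolipoprotein gene, with 306, 341 and 288 CPM in *chordin*-overexpressing embryos, against 642, 624 and 752 CPM in uninjected embryos (log2 fold change -1.11 ± 0.09 SE, adjusted p = 2.74e-09, limma).

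Among the 10 largest rises, *irx3a*, *zgc:56628*, *tbr1b* and *nat8l* stood in no list. *irx3a*, a further Iroquois gene, had 18.6, 21.7 and 23.7 CPM in *chordin*-overexpressing embryos and 4.94, 4.70 and 6.86 CPM in uninjected embryos (log2 fold change 2.01 ± 0.30 SE, adjusted p = 0.000185, limma). *tbr1b*, a T-box gene known from forebrain neurons, had 15.4, 9.05 and 14.5 CPM in *chordin*-overexpressing embryos and 2.96, 3.45 and 6.50 CPM in uninjected embryos. It was not called without replicate 3 of the *chordin*-overexpressing embryos or replicate 2 of the uninjected embryos (adjusted p = 0.0677 and 0.0647, limma). *nat8l*, which encodes an enzyme that makes N-acetylaspartate, had 27.1, 13.9 and 29.7 CPM in *chordin*-overexpressing embryos and 6.71, 7.5 and 8.45 CPM in uninjected embryos (adjusted p = 0.00222, limma). *zgc:56628* had 6.65, 7.91 and 14.3 CPM in *chordin*-overexpressing embryos and 3.09, 2.11 and 3.25 CPM in uninjected embryos, and its adjusted p (limma) of 0.038 reached 0.283 without replicate 3 of the *chordin*-overexpressing embryos, 0.187 without replicate 2 and 0.111 without replicate 3 of the uninjected embryos. The largest rises in CPM after *CYTB* and *chd* were those of *stm*, *tdgf1* and *anp32a*. *stm* (*starmaker*), known for its role in otolith formation, had 2146, 1981 and 1856 CPM in *chordin*-overexpressing embryos, against 1305, 1192 and 1304 CPM in uninjected embryos (log2 fold change 0.66 ± 0.06 SE, adjusted p = 4.07e-08, limma). *anp32a*, a gene for a nuclear phosphoprotein, had 1013, 1136 and 1078 CPM in *chordin*-overexpressing embryos and 875, 861 and 854 CPM in uninjected embryos. Its rise of 0.31 on the log2 scale (standard error 0.06, adjusted p = 0.00957, limma) was lost without replicate 2 of the *chordin*-overexpressing embryos (adjusted p = 0.121, limma) and stood at the threshold without replicate 3 of them (adjusted p = 0.05, limma).

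Genes near the detection limit were found by their counts alone, with 3 or fewer counts in every library of 1 group and 10 or more in every library of the other. 3 counts corresponded to 0.129 to 0.344 CPM, depending on the library. By this rule 16 genes were at the limit in *chordin*-overexpressing embryos and 8 in uninjected embryos, and of the 13 that entered the test none was called (limma). At an unadjusted p under 0.05 there were 8 of the 13, and limma-trend called 3 and sample quality weights 1. The fit without the low-count filter took in every gene that met the rule. It called *msx3*, *cdx1a*, *LOC103908882*, *LOC103910708* and *LOC101886517* lower, *rbfox1* and *si:ch1073-228j22.2* higher, and none of the others. The rule itself picked genes whose counts differ between the groups, so these numbers are no support for a change. Of all 16590 genes tested, 873 were higher and 692 lower at an unadjusted p under 0.05. The counts of such genes are given with ratios of pooled rates and exact 95% intervals, which cover counting error only and not the spread between libraries. *msx3*, a homeobox gene of the neural plate border and dorsal neural tube, had 1, 0 and 1 counts in *chordin*-overexpressing embryos, against 54, 126 and 69 counts in uninjected embryos, and was 92.3-fold lower (interval 25.3 to 766). *cdx1a*, a caudal homeobox gene, had 2, 0 and 2 counts in *chordin*-overexpressing embryos and 54, 85 and 88 counts in uninjected embryos, 42.1-fold lower (16.2 to 156). *id4* had 2, 1 and 1 counts in *chordin*-overexpressing embryos and 129, 35 and 42 counts in uninjected embryos, 38.2-fold lower (14.7 to 141), with uninjected replicate 1 far above the others. The 3 genes had adjusted p-values of 0.0714, 0.154 and 0.396 (limma), and of 0.000212, 0.00283 and 0.0616 without the low-count filter. Over all alternative fits (limma) the ranges were 0.000212 to 0.577, 0.00283 to 0.645 and 0.0345 to 0.820. The next 3 by level were *LOC108179327*, *LOC101885494* and *mc5rb*, which encodes a melanocortin receptor. *mc5rb* had 1, 2 and 3 counts in *chordin*-overexpressing embryos and 19, 26 and 20 counts in uninjected embryos, 8.03-fold lower (3.50 to 22.7). 2 genes, *LOC103910708* and *LOC101886517*, were at 0 counts in all *chordin*-overexpressing libraries, which puts them at least 3.89-fold and 3.26-fold lower against 3 counts per library.

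In the other direction the highest levels were those of *si:dkey-46i9.6*, *rbfox1* and *itga11a*. *rbfox1*, which encodes a splicing factor of neurons and muscle, had 33, 15 and 14 counts in *chordin*-overexpressing embryos, against 1, 0 and 0 counts in uninjected embryos, 83.7-fold higher (interval 14.5 to 3357). *itga11a*, an integrin alpha gene, had 19, 24 and 13 counts in *chordin*-overexpressing embryos and 2, 3 and 0 counts in uninjected embryos, 15.1-fold higher (6.11 to 48.4). *si:dkey-46i9.6* had 17, 28 and 17 counts in *chordin*-overexpressing embryos and 1, 3 and 3 counts in uninjected embryos, 12.0-fold higher (5.47 to 31.0). The remaining 3 of the highest 6 were *si:ch1073-228j22.2*, *LOC100334198* and *s100a10a*, each with 10 to 18 counts in *chordin*-overexpressing libraries and at most 3 in uninjected libraries. Without the low-count filter *rbfox1* was called higher (adjusted p = 0.00651, limma), against 0.209 with it and up to 0.689 in other alternative fits. How many genes met the rule depended on every library and on depth. With a library left out, and so fewer libraries to meet the rule, 33 to 73 genes were at the limit in *chordin*-overexpressing embryos and 15 to 62 in uninjected embryos. After all libraries were thinned to 8861308 counts there were 5 in each direction.

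**Figure D5:**
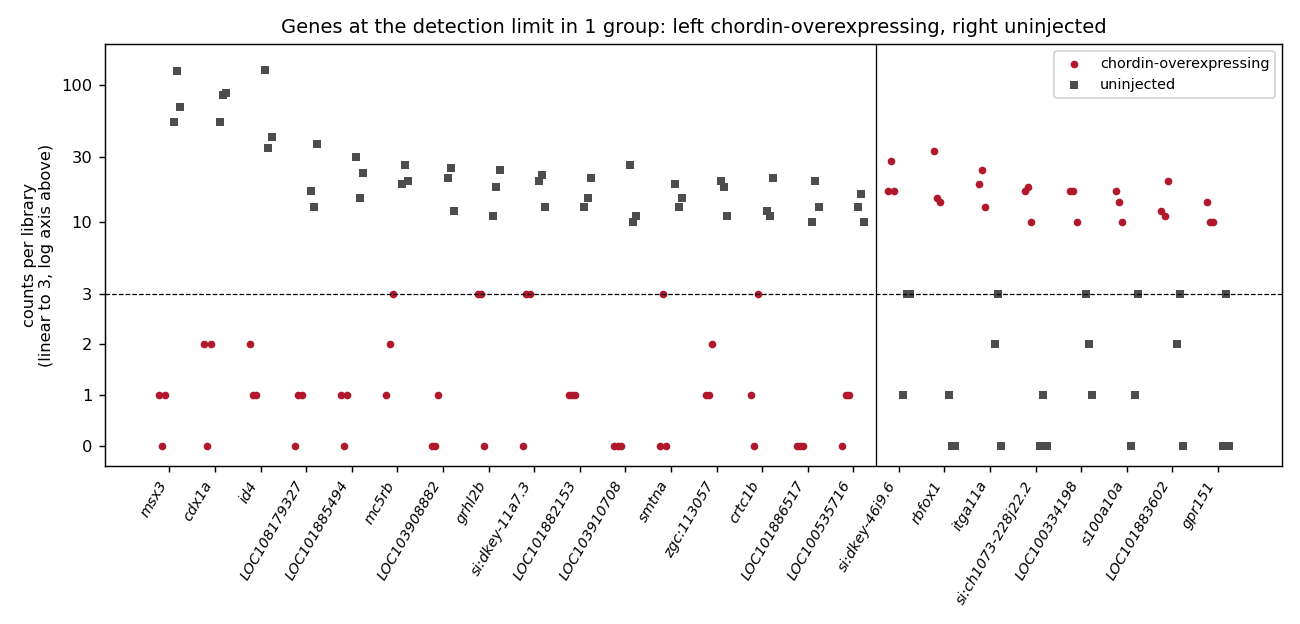
Counts per library (linear up to 3, log axis above) of the 24 genes at the detection limit in 1 group, with *chordin*-overexpressing libraries as red circles to the left of uninjected libraries as grey squares. The 16 genes left of the vertical line are at or under 3 counts (dashed line) in *chordin*-overexpressing embryos, and the 8 to its right are so in uninjected embryos.

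A few of the genes above are set beside their values in *bmp*-overexpressing embryos, chosen after those values were seen. Each comparison uses the same 3 uninjected libraries, so the values are not independent. *vent* had a log2 fold change of -1.5 with *chordin* and -0.96 with *bmp* (adjusted p = 0.00272, limma), and *sox2* had -0.60 with *chordin* and -0.79 with *bmp* (adjusted p = 0.000279, limma). *fgf8a* had 0.77 with *chordin* and 0.71 with *bmp* (adjusted p = 0.00659, limma), *cyp26a1* had 0.73 and 0.94 (adjusted p = 8.31e-06, limma), and *aplnrb* had 0.60 and 0.51 (adjusted p = 0.0135, limma). *bambia* had -2.65 with *chordin* and 0.96 with *bmp* (adjusted p = 1.2e-10, limma), and *gata2a* had -1.87 and 1.69 (adjusted p = 4.71e-14, limma). *admp* had 2.19 with *chordin* and -2.31 with *bmp* (adjusted p = 3.4e-06, limma), and *gsc* had 0.95 and -1.84 (adjusted p = 6.92e-07, limma). *tbx6l* (-1.08 with *chordin*) had -0.04 with *bmp* (adjusted p = 0.948, limma), and *her3* (2.46 with *chordin*) had -6.47 with *bmp* (adjusted p = 0.0135, limma). For *her3* the *bmp*-overexpressing libraries held 6, 1 and 0 counts, so the size of that fall is poorly measured. The differences between the 2 injections were not tested.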

How the data were processed

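RNA was sequenced from pools of whole zebrafish embryos, as poly(A) libraries that keep no strand. Per the paper's methods and the labels, the authors aligned reads to GRCz10 with STAR 2.4.1b; the processing notes also name HTSeq. The deposited values are whole-number read counts per gene, not normalized, written with commas as digit separators, which were removed. Fold changes, p-values and calls of the authors from edgeR, DESeq and Cuffdiff in the same tables were not used. The deposited counts are recorded as text because of the commas, and count-model tools were left out on that account. The restored whole numbers would have allowed a count model, and limma was used instead.

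Counts of the 3 *chordin*-overexpressing and 3 uninjected libraries were normalized by TMM factors (trimming 30% of ratios and 5% of levels) and fitted with limma 3.58.1 (voom) in R 4.3.3, without covariates. A gene was tested with at least 0.693 CPM (10 counts at the median depth) in 3 libraries and 15 counts in total. Calls used a Benjamini-Hochberg adjusted p under 0.05. The fit was tested on simulated data. Replicates of a group differed by a chi-square of 11.9 to 36.2 per degree of freedom, so no library is a copy of another.

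The comparison and the 15 gene lists were chosen with earlier results of these data known. Of the 227 names in the lists 224 were found, 8 by a synonym in RefSeq; *twsg1b*, on 2 loci, was left out. Named genes are *chd*, called list members, the 10 largest log2 changes and 5 largest CPM changes per direction (for log2 changes, without overlap between groups and from 1 CPM), and the 6 most abundant genes at the detection limit per direction; list members that were not called are given as values, and others are said to be chosen after seeing values. 1 called list member is not reported here. Of the 41977 gene rows 27241 had a count in these libraries. Alternatives were RLE normalization, no low-count filter, a fit over all 3 groups, blocking on replicate number, limma-trend (prior count 2, no voom weights), sample quality weights, thinning to 8861308 counts, leaving out joined, same-named and mitochondrial rows, other thresholds, and each library left out.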

Additional observations from a re-analysis of the deposited data

How the results depend on the processing

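Against 98 genes higher and 50 lower, RLE normalization, no low-count filter, all 3 groups in the fit, limma-trend, sample quality weights, thinning to the shallowest library and leaving out joined, same-named and mitochondrial rows each gave counts within 1.5 times, between 89 and 138 higher and between 49 and 68 lower. With each library left out, between 76 and 242 genes were higher and between 27 and 146 lower, the highest counts without uninjected replicate 1. At an adjusted p under 0.01 there were 61 higher and 27 lower, and with a 2-fold minimum 35 and 26. A replicate block gave 198 higher and 109 lower, with all 148 genes among them. The deviations of same-numbered libraries from their group means had correlations of 0.056, -0.023 and -0.01. The labels do not say whether same-numbered pools shared a clutch, and these values cannot decide it. No called gene changed sign in 2069 refits, of which 278 missed the threshold. Genes at the detection limit, 16 in *chordin*-overexpressing and 8 in uninjected embryos, numbered 8 and 2 with 1 count as the limit and 5 and 5 after thinning. With each library left out they ranged from 33 to 73 and from 15 to 62, since fewer libraries then had to meet the rule. Below 5 CPM the fit reported made no call and limma-trend made 9, so calls there depend on the fit as well as on depth.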

Other observations

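Further called genes were picked out after their values were seen, and are given as values. In Notch signaling, *jag1a*, a ligand gene, had 2.06, 3.78 and 3.69 CPM in *chordin*-overexpressing embryos, against 14.2, 11.5 and 9.75 CPM in uninjected embryos (log2 fold change -1.92 ± 0.44 SE, adjusted p = 0.0227, limma). *nrarpa*, which encodes a feedback regulator of Notch, had 101, 93.8 and 80.9 CPM in *chordin*-overexpressing embryos and 129, 123 and 153 CPM in uninjected embryos (log2 fold change -0.56, adjusted p = 0.0247, limma). Each was called in 3 of the 6 fits with a library left out. The Delta gene *dla*, of the neural plate list, was not called and its groups overlapped (log2 fold change -0.03, adjusted p = 0.992, limma). *otx1a*, a head homeobox gene related to *otx1b*, had 149, 142 and 154 CPM in *chordin*-overexpressing embryos and 59.1, 45.4 and 49.4 CPM in uninjected embryos (log2 fold change 1.56 ± 0.13 SE, adjusted p = 7.5e-09, limma). *ripply1*, a gene of somite formation, had 49.4, 31.1 and 41.4 CPM in *chordin*-overexpressing embryos and 12.9, 13.1 and 19.2 CPM in uninjected embryos (log2 fold change 1.5, adjusted p = 0.000182, limma). *fzd8a*, a Wnt receptor gene, had 96.0, 79.4 and 103 CPM in *chordin*-overexpressing embryos and 53.1, 50.4 and 41.7 CPM in uninjected embryos (log2 fold change 0.95, adjusted p = 0.000262, limma). These last 3 genes were called with each library left out.

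Beside the fall of *apoc1l*, *apoc2* had 195, 133 and 137 CPM in *chordin*-overexpressing embryos and 82.5, 96.2 and 112 CPM in uninjected embryos (log2 fold change 0.68, adjusted p = 0.00916, limma), and *apoa1a* had 62.6, 33.8 and 40.3 CPM in *chordin*-overexpressing embryos and 18.2, 25.4 and 31.3 CPM in uninjected embryos (log2 fold change 0.87, adjusted p = 0.0468, limma). *apoa1a* was called in 7 and *apoc2* in 13 of the 14 alternative fits. The annotated locus of *apoa1a* overlaps that of *si:dkey-111e8.1*, which held 5350 counts over the whole series. As the reads carry no strand, the values of *apoa1a* may include shared reads. Without the low-count filter, with limma-trend, with sample quality weights and after thinning, *apoa1a* had adjusted p-values (limma) of 0.081, 0.0516, 0.0976 and 0.114. *has2*, which encodes a hyaluronan synthase, had 86.4, 74.7 and 66.1 CPM in *chordin*-overexpressing embryos and 48.4, 38.2 and 42.6 CPM in uninjected embryos (log2 fold change 0.82, adjusted p = 0.00385, limma). *sulf1*, which encodes an extracellular sulfatase of heparan sulfate, had 144, 148 and 154 CPM in *chordin*-overexpressing embryos and 98.5, 78.2 and 94.1 CPM in uninjected embryos (log2 fold change 0.75, adjusted p = 0.000525, limma).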
